A study of Mus musculus with 33 samples.

Results

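The 10 genes described here were Hk1, Pfkp, Aldoa, Gapdh, Pgk1, Eno1 and Pkm of glycolysis, Ldha and Ldhb, and Pdha1, which encodes a subunit of pyruvate dehydrogenase. They were taken by gene symbol from a count table of 35321 genes. The members were selected on their normalized counts in these oocytes, in that Ldha was known to be higher in NSN Nlrp5 -/- oocytes than in Nlrp5 +/+ oocytes, so this difference is a description and carries no test. Aldoa had a second row, which held 13 counts over all oocytes and was left out.

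Glycolysis splits glucose into pyruvate in a series of cytoplasmic steps. Lactate dehydrogenase then interconverts pyruvate and lactate, and the pyruvate dehydrogenase complex feeds pyruvate into the mitochondrial citric acid cycle. Lactate dehydrogenase is a tetramer of A subunits, encoded by Ldha and typical of glycolytic tissues, and B subunits, encoded by Ldhb and typical of tissues that oxidise lactate. Fully grown mouse oocytes are known to use pyruvate rather than glucose as their main energy substrate, and the granulosa cells around them supply it.

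The samples were 33 single germinal vesicle oocytes from 3-week-old females on a C57BL6/Babr background. Nlrp5, also known as Mater, encodes a core protein of the subcortical maternal complex, and the mutant allele was a small CRISPR/Cas9 deletion that creates a premature stop codon. Nlrp5 -/- and +/- females were littermates, while the +/+ females were mostly taken from the colony in which the line was made. The labels gave 10 Nlrp5 +/+, 16 Nlrp5 +/- and 7 Nlrp5 -/- oocytes. Chromatin stage, non-surrounded nucleolus (NSN, the earlier stage) or surrounded nucleolus (SN, the later), is not in the labels and was read from the figures of the study, which staged oocytes by marker genes, and none of the 10 genes is among those markers. This gave 4 Nlrp5 +/+, 9 Nlrp5 +/- and 4 Nlrp5 -/- NSN oocytes, and 6, 7 and 2 SN oocytes in the same order. Nlrp5 -/- oocyte 15 had no stage. No mouse is named for any oocyte, and the libraries of different genotypes never shared a first sequencing index, so genotype, mouse of origin and index group cannot be told apart. No test between groups was therefore made: SDs give the spread over oocytes, and intervals cover counting error only.

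Total counts on genes were between 4225037 and 15579217 per oocyte. Nlrp5 itself had 10112 to 29132 normalized counts in Nlrp5 +/+, 5062 to 13473 in Nlrp5 +/- and 1362 to 2556 in Nlrp5 -/- oocytes, in the order of the genotype labels. A normalized count is the read count divided by the oocyte's size factor. All 10 oocyte markers examined, among them Gdf9 and Zp3, had counts in every library. Nlrp5 -/- oocytes 7, 13, 14 and 15 stood apart by the sum of 12 of 16 granulosa cell markers, a subset chosen after the data were seen. By the sum of all 16, oocytes 7 and 13 lay inside the Nlrp5 +/+ range. Nlrp5 -/- oocytes 14 and 15 and Nlrp5 +/- oocyte 61 stood apart by markers of theca and interstitial cells.

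Ldhb was the most abundant of the 10 transcripts by a wide margin, and Ldha and Hk1 were the scarcest. Per kb of transcript, Ldhb averaged 25534 ± 3769 normalized counts in the 10 Nlrp5 +/+ oocytes (SD, n = 10). This placed it at rank 3 of 34755 genes. Ldha averaged 5.91 ± 5.17 per kb, at rank 12947, and the Ldhb mean was 4320 times as high. The Ldha and Ldhb loci lie on different chromosomes of GRCm38, Ldha on chromosome 7 from 46841475 to 46855627 on the plus strand and Ldhb on chromosome 6 from 142490249 to 142507957 on the minus strand. Their promoters are shown because the paralogs differ so far in level.

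The 300 bases around the RefSeq start of each gene (GRCm38.p6, 5′ to 3′ on the gene's strand) are given below, with capitals marking ACGTG and GCGTG on either strand, the 2 forms of the core of the hypoxia response element, where CACGTG holds the first form on both strands. The Ldha window is chr7:46845554-46845853 on the plus strand and the Ldhb window is chr6:142507908-142508207 on the minus strand. Ldha has 2 RefSeq windows, and the one with the lower start is shown.
Ldha: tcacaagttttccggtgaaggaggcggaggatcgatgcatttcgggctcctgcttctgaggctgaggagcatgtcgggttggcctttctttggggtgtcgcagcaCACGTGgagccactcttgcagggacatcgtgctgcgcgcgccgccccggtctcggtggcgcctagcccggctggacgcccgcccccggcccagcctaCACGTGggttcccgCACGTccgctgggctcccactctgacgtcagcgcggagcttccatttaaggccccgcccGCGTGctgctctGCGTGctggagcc
Ldhb: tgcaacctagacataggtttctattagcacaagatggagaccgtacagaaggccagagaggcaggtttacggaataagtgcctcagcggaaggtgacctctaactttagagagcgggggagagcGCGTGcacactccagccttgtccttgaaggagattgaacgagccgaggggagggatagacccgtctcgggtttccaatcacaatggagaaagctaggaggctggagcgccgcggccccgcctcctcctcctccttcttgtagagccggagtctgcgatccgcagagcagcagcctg

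This Ldha window held 3 copies of ACGTG (each CACGTG counted once), 2 of GCGTG and 30 CpG sites. The other Ldha window and the Ldhb window held no ACGTG, 2 copies and 1 copy of GCGTG, and 13 and 17 CpG sites. Of all 32851 RefSeq windows, 19.6% held ACGTG, 32.4% held GCGTG and 43.8% held at least 1 of the 2 forms on either strand, and 7.15% held CACGTG. Of the 17 windows of the 10 genes, 7 held ACGTG, 10 held GCGTG and 14 held at least 1 form. Some of the 17 overlap one another, among them windows of Aldoa and of Eno1. The median over all RefSeq windows was 7 CpG sites, and each of the 2 forms holds a CpG. A match describes the letters only.

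Below Ldhb, the members fell in steps. Pkm, which encodes pyruvate kinase, averaged 927 ± 255 normalized counts per kb and Aldoa, which encodes aldolase, 486 ± 86.5 (SD, n = 10 Nlrp5 +/+ oocytes). Pdha1 averaged 226 ± 46.4 and Eno1, which encodes enolase, 189 ± 45.5, and their ranges overlapped. Pgk1, which encodes phosphoglycerate kinase, averaged 120 ± 28.3 per kb, overlapping Eno1 but lying above every value of Gapdh. Gapdh and Pfkp overlapped one another, and Pfkp lay above every value of Ldha. Hk1, which encodes hexokinase 1, averaged 0.751 ± 0.856 per kb and overlapped Ldha. Hk2, Hk3 and Hkdc1, hexokinase genes named after their values were seen, averaged 1.498, 0.0520 and 0.0786 per kb. By comparison Bpgm (3736 per kb), which encodes bisphosphoglycerate mutase, and G6pdx (1052 per kb), which opens the pentose phosphate pathway, both chosen after their values were seen, had higher means than Pkm, and the range of G6pdx overlapped that of Pkm. Gapdh, Eno1, Aldoa and Pgk1 have processed pseudogenes or close paralogs that could take part of their reads.

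**Figure D1:**
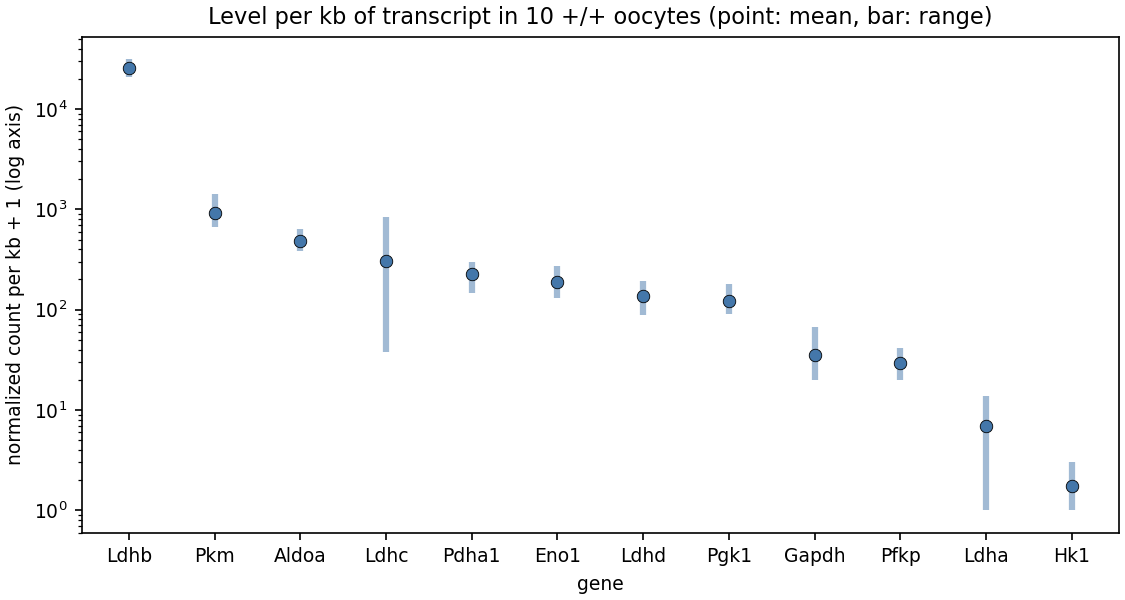
Level of the 10 members and of Ldhc and Ldhd in the 10 Nlrp5 +/+ oocytes, as normalized count per kb of the canonical transcript plus 1, on a log axis; points are means and bars run from the lowest to the highest oocyte. Ldhb, at 25534 per kb, stands alone at the top, and Ldha and Hk1 lie at the bottom.

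Ldha was near the limit of detection in Nlrp5 +/+ NSN oocytes and higher in every Nlrp5 -/- NSN oocyte. Of all 33 oocytes, only Nlrp5 +/+ NSN oocyte 79 had no read of it. The 4 Nlrp5 +/+ NSN oocytes had 3.36, 0.943, 0 and 6.45 normalized counts. The Nlrp5 -/- NSN oocytes had 138, 428, 30.0 and 27.0, for oocytes 13, 14, 29 and 30. The groups did not overlap, and the lowest Nlrp5 -/- oocyte lay above the highest Nlrp5 +/+ oocyte. In raw counts these were 13 reads over the 4 Nlrp5 +/+ libraries against 752 over the 4 Nlrp5 -/- libraries, a ratio of 69.7 per unit of size factor (95% interval 40.5 to 131.5, exact binomial, counting error only). On the log2 scale, with 1 added to each mean, the difference of means was 5.41.

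Of the 13838 genes with a mean of at least 10 normalized counts in this comparison, 4.93% were higher by a log2 of at least 1 and 3.96% were higher with no overlap of the groups. Ldha was the single member of 9 that passed the filter to meet either rule. It passed the filter only through the Nlrp5 -/- oocytes and the rule of choice used this comparison, so nothing is read from this count. The median over all 10 members was 0.16, and -0.003 without oocytes 13 and 14, and over all genes that passed the filter it was 0.00. The comparisons of Nlrp5 -/- and of Nlrp5 +/- oocytes with Nlrp5 +/+ share the same Nlrp5 +/+ oocytes.

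The size of the Ldha difference depended on oocytes 13 and 14. Without them, oocytes 29 and 30 remained at 30.0 and 27.0, still above the highest Nlrp5 +/+ value of 6.45, and the log2 difference was 3.00. The pooled ratio was then 10.7 (5.81 to 21.25), from 60 reads against 13. Without these libraries 9.9% of genes were higher with no overlap.

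Some granulosa cell markers were high in the Nlrp5 -/- oocytes with the most Ldha, and others were not. The list held 16 genes, of which Cyp19a1, Nr5a2, Kitl and Serpine2 had a mean of at least 50 in Nlrp5 +/+ oocytes, and the remaining 12 were summed as well, a choice made after the data were seen. The sum of the 12 was 1.38 to 12.1 CPM (counts scaled to the library's total) in the 10 Nlrp5 +/+ oocytes and 1.18 to 26.0 in the 16 Nlrp5 +/- oocytes. In Nlrp5 -/- oocytes it was 158 in oocyte 13, 305 in oocyte 14, 110 in oocyte 7 and 911 in oocyte 15, against 17.8 in oocyte 29, 9.64 in oocyte 30 and 13.8 in oocyte 31. All 4 Nlrp5 -/- NSN oocytes thus lay above the 4 Nlrp5 +/+ NSN oocytes, at 2.08 to 7.51. The 12 were kept for a low mean in Nlrp5 +/+ oocytes, so this order is partly set by the choice and nothing is read from it. By all 16 genes oocytes 29 and 30, at 286 and 334 CPM, lay inside the Nlrp5 +/+ NSN range of 279 to 474. Of the 4 genes left out of that sum, Cyp19a1 had 417, 247, 246 and 313 normalized counts in oocytes 13, 14, 15 and 7. In the same order Serpine2 had 1477, 1682, 1534 and 1792. All of these were below the Nlrp5 +/+ means of 419 and 2033. Nr5a2 had 214, 589, 1325 and 274 in that order, against a Nlrp5 +/+ mean of 264. Kitl had 129, 97.7, 86.6 and 20.2, against a mean of 73.7. Summed over all 16 genes, the list gave 279 to 474 CPM in Nlrp5 +/+ and 286 to 671 in staged Nlrp5 -/- oocytes. Inha, the inhibin alpha subunit, had 519 and 906 normalized counts in oocytes 13 and 14 against a mean of 11.1 in Nlrp5 +/+ oocytes, while Foxl2, a granulosa transcription factor, was at 0 in oocytes 13 and 7. Of the 16 markers, 9 in oocyte 13, 13 in oocyte 14, 6 in oocyte 7 and 12 in oocyte 15 exceeded every Nlrp5 +/+ oocyte, against 4, 1 and 3 in oocytes 29, 30 and 31. The part of these markers in the Ldha difference was not tested, and the difference without oocytes 13 and 14 is given above.

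The 5 oocytes with the most Ldha were oocytes 15, 14, 61, 7 and 13. Of these, oocytes 15, 14, 7 and 13 were the 4 with the highest sum of the 12 granulosa markers. By the sum of all 16, Nlrp5 +/+ oocyte 79, with no Ldha read, had 474 CPM against 445 in oocyte 13, and 419 in oocyte 7. Oocyte 61 had a granulosa sum of 18.2 CPM, within the Nlrp5 +/- range, but 324 CPM of the 9 theca and interstitial markers, against 5.52 to 23.0 in Nlrp5 +/+ oocytes. Oocytes 14 and 15 had 239 and 670 CPM of these, with 7 of the 9 above every Nlrp5 +/+ oocyte. In oocyte 61, Cyp17a1 and Cyp11a1, steroid synthesis enzymes of theca cells, had 460 and 642 normalized counts. Of the 9 markers, 7 exceeded every Nlrp5 +/+ oocyte in oocyte 61. Ptch1 was lower there, at 4.06 against a Nlrp5 +/+ mean of 37.4, and Insl3 was at 0. Oocyte 54, with 107 CPM of the same markers, had 5.71 normalized counts of Ldha. Stroma, vessel and blood markers, without Pecam1, were at 207 CPM in oocyte 15 and at 0.793 to 49.95 in every other oocyte. With Pecam1, all 12 summed to 46.2 to 75.5 CPM in Nlrp5 +/+ NSN and 86.2 to 121 in Nlrp5 -/- NSN oocytes, with 99.99 in oocyte 29 and 104 in oocyte 30, so these groups did not overlap either. Without it they overlapped, with 11.2 and 25.4 in oocytes 29 and 30 against 0.793 to 12.3. The part of the theca and stroma markers in the Ldha difference was not tested.

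**Figure D2:**
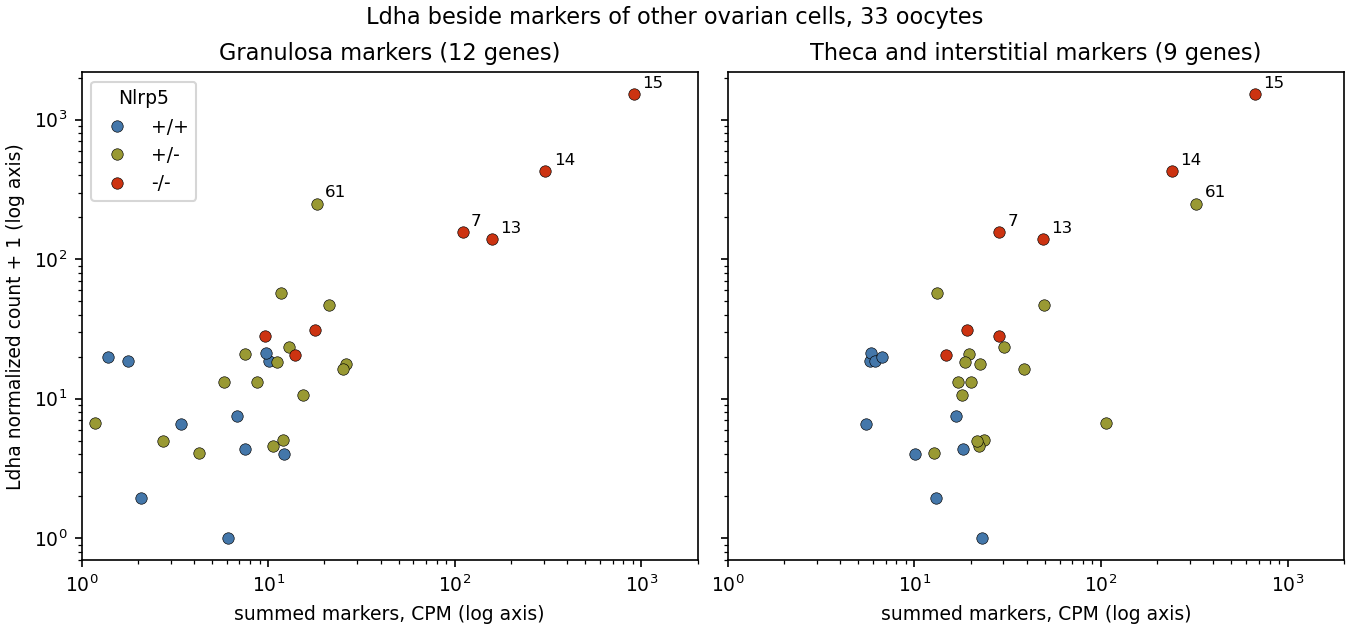
Ldha normalized count plus 1 against the summed CPM of 12 granulosa cell markers (left) and 9 theca and interstitial markers (right) in all 33 oocytes, both axes on a log scale, coloured by genotype. Oocytes 15, 14, 13 and 7 lie at the upper right on the left, and oocyte 61 joins 14 and 15 on the right.

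Among Nlrp5 +/- NSN oocytes Ldha ran from 3.55 to 22.6 in 8 oocytes and was 249 in oocyte 61. The median of the 9 was 12.2. The log2 difference from Nlrp5 +/+ was 3.35 with oocyte 61 and 1.59 without it, and the groups overlapped in both cases. Ldha passed the filter in this comparison only through the Nlrp5 +/- oocytes, whose mean of 36.7 was carried by oocyte 61, so nothing is read from the shares that follow. In this comparison 2.03% of genes were higher by a log2 of at least 1 and 0.175% were higher with no overlap.

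Against Nlrp5 +/- NSN oocytes, the Nlrp5 -/- oocytes were higher in Ldha by a log2 of 2.06, with overlap through oocyte 61. Without oocyte 61 it was 3.82 and without oocyte 14 it was 0.81. In this comparison 3.07% of genes were higher by at least 1. Leaving out oocytes 13 and 14 turned the difference to -0.35, since oocyte 61 then carried the Nlrp5 +/- mean. With oocyte 61 left out as well, the difference was 1.41, and both remaining Nlrp5 -/- oocytes lay above the highest Nlrp5 +/- value of 22.6, where 3.76% of genes were higher with no overlap.

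In SN oocytes Ldha did not separate the genotypes. The 6 Nlrp5 +/+ oocytes ran from 3.01 to 20.25 with a median of 17.7, and the 7 Nlrp5 +/- oocytes ran from 3.07 to 56.2 with a median of 17.3. The Nlrp5 -/- oocytes had 155 in oocyte 7 and 19.5 in oocyte 31, so the second lay inside both other groups. The log2 difference from Nlrp5 +/+ was 2.57 with both oocytes and 0.47 with oocyte 31 alone, and that from Nlrp5 +/- was 1.82 and -0.28. In the first of these comparisons 4.07% of genes were higher by at least 1, and in the second 3.35%. Between Nlrp5 +/- and Nlrp5 +/+ the difference was 0.75, where 1.14% of genes were higher by at least 1.

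Between stages, Ldha in Nlrp5 +/+ oocytes averaged 2.69 ± 2.88 at NSN (SD, n = 4) and 13.9 ± 7.51 at SN (n = 6), a log2 difference of 2.01 with overlapping groups and a mean below the filter. In Nlrp5 +/- oocytes the difference was -0.60, and 1.16 without oocyte 61. In Nlrp5 -/- oocytes it was -0.83, and -0.52 without oocytes 7, 13 and 14. Leaving out 1 oocyte at a time, this last difference ran from -2.93 to 0.42, so its sign was not stable.

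By genotype as labelled alone, without regard to stage and with oocyte 15 included, the Nlrp5 -/- oocytes were higher than the Nlrp5 +/+ oocytes by a log2 of 4.997 for Ldha, 0.25 for Ldhb, 0.86 for Gapdh, 0.65 for Aldoa and 0.62 for Eno1 (n = 7 and 10). Pgk1 differed by a log2 of 0.14 and Hk1 by 1.00. These log2 values do not use the stages taken from the figures of the study. They include oocyte 15, and no value without it is given here for both stages together. Of all 33 oocytes it was the highest in Ldha (1517), Gapdh (183), Aldoa (2294) and Eno1 (1341). It also had the highest granulosa, theca and stroma marker sums.

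Ldhb was between 27134 and 92331 normalized counts in all 33 oocytes. In NSN oocytes it averaged 35805 ± 2784 in Nlrp5 +/+ (SD, n = 4), 53472 ± 18653 in Nlrp5 +/- (n = 9) and 44042 ± 11890 in Nlrp5 -/- (n = 4). In SN oocytes it averaged 41199 ± 6416, 40521 ± 9611 and 53607 ± 10729 (n = 6, 7 and 2). With all staged oocytes, the groups overlapped in every one of the 9 comparisons. The log2 difference between Nlrp5 -/- and Nlrp5 +/+ was 0.30 at NSN and 0.38 at SN, and 0.07 and 0.16 without oocytes 7, 13 and 14, and the largest of the 9 was 0.58, between Nlrp5 +/- and Nlrp5 +/+ at NSN. The highest value was that of Nlrp5 +/- NSN oocyte 56.

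Because Ldhb was so abundant, Ldha remained a small share of the 2 transcripts even where it was highest. In Nlrp5 +/+ NSN oocytes Ldha made up 0.0105%, 0.00267%, 0% and 0.0170% of the reads of both genes, not corrected for length. The 0 was in oocyte 79, where 0 of 51066 reads allows a share of up to 0.00588% (3 counts), or 0.00722% by the exact interval. In Nlrp5 -/- NSN oocytes the shares were 0.331% (oocyte 13, 95% interval 0.261 to 0.415, exact Clopper-Pearson), 0.718% (oocyte 14, 0.662 to 0.776), 0.0989% (oocyte 29, 0.0596 to 0.154) and 0.0599% (oocyte 30, 0.0430 to 0.0812). Every Nlrp5 -/- NSN share lay above the highest Nlrp5 +/+ NSN share. The highest share of any staged oocyte was that of oocyte 14, and per kb its Ldhb still exceeded its Ldha by 144 times. In unstaged oocyte 15 the share was 3.48% (3.33 to 3.64).

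**Figure D3:**
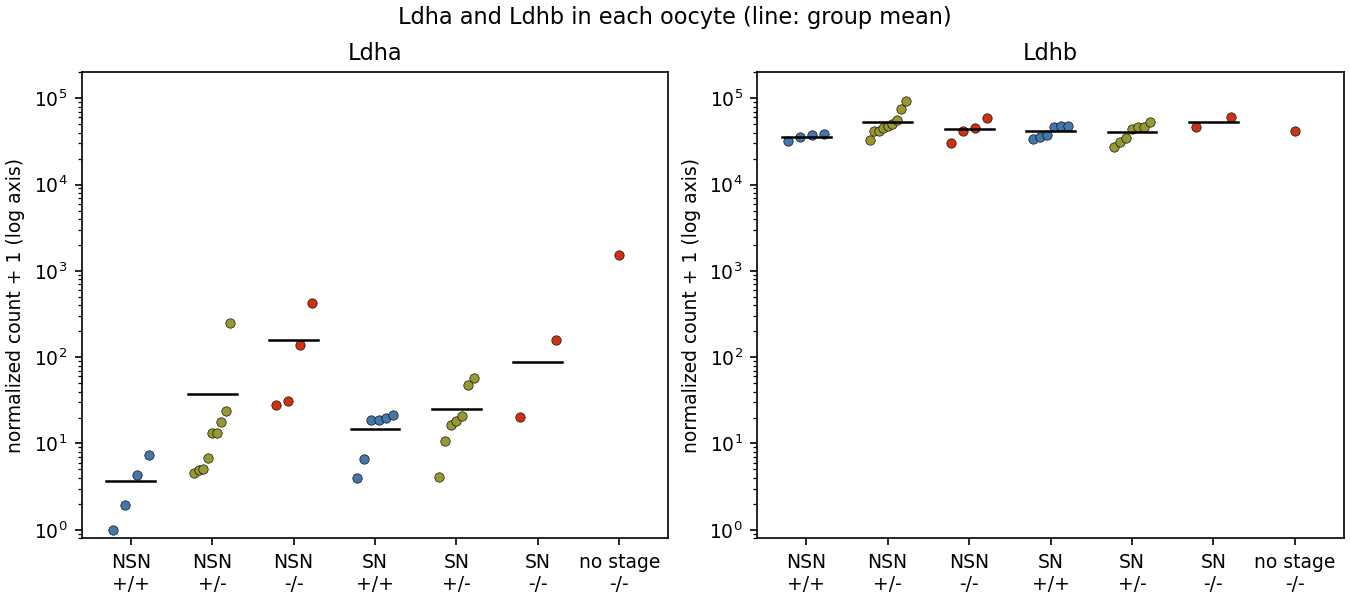
Normalized count plus 1 of Ldha (left) and Ldhb (right) in each oocyte by stage and genotype on a log axis; points are oocytes and lines are group means. Ldha spans from 0 to 1517 while Ldhb stays between 27134 and 92331.

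The remaining lactate dehydrogenase genes followed other patterns. Ldhc, the isoform known from the germ line, averaged 1004 ± 295 normalized counts in Nlrp5 +/+ NSN oocytes (SD, n = 4) and 145 ± 100 in SN oocytes (n = 6), with no overlap, where 6.07% of genes were lower with no overlap. It lies among the genes used to stage the oocytes. Between Nlrp5 -/- and Nlrp5 +/+ the means of Ldhc differed by a log2 of 0.11 at NSN and 0.45 at SN, with overlap at both stages. At NSN the Nlrp5 -/- median of 798 lay below the Nlrp5 +/+ median of 1032, and the highest Nlrp5 -/- value was 2138. At SN the Nlrp5 -/- values of 115 and 283 lay inside the Nlrp5 +/+ range of 59.5 to 317. Ldhd, which encodes the mitochondrial D-lactate dehydrogenase, averaged 404 ± 122 and 498 ± 39.1 in Nlrp5 +/+ and -/- NSN oocytes (n = 4 each), and the groups overlapped.

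Of the upper steps, Hk1 was at or near 0 in all staged oocytes. It had a read in 2 of 4 Nlrp5 +/+ NSN oocytes and 3 of 6 Nlrp5 +/+ SN oocytes, where the highest value was 8.58 normalized counts. In Nlrp5 -/- NSN oocytes it had 2 reads over the 4 libraries against 16 in Nlrp5 +/+, and it did not pass the filter on low counts in any comparison. Pfkp, the platelet isoform of phosphofructokinase, averaged 130 ± 35.6 in Nlrp5 +/+ NSN, 124 ± 57.3 in Nlrp5 +/- NSN and 141 ± 49.4 in Nlrp5 -/- NSN oocytes (SD, n = 4, 9 and 4). In SN oocytes the Nlrp5 -/- values of 91.8 and 96.2 lay inside the Nlrp5 +/+ range of 82.0 to 159.

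Aldoa and Eno1 had higher means in Nlrp5 -/- oocytes, with overlap of the groups at both stages. At NSN, Aldoa ran from 574 to 965 in Nlrp5 +/+ and had 783, 1143, 859 and 955 in Nlrp5 -/- oocytes 13, 14, 29 and 30, a log2 difference of 0.32. At SN it had 1305 in oocyte 7 and 726 in oocyte 31 against 599 to 848 in Nlrp5 +/+, and the log2 difference of 0.49 became 0.00 without oocyte 7. Eno1 differed by a log2 of 0.22 at NSN and 0.52 at SN, and by 0.01 and 0.23 without oocytes 7, 13 and 14. Pgk1 differed by 0.11 at NSN and -0.52 at SN, with overlap at both stages, and by -0.07 and -0.21 without oocytes 7, 13 and 14.

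Gapdh was low for a gene often used as a reference, and it was the single member that separated Nlrp5 -/- from Nlrp5 +/+ oocytes at SN. The 6 Nlrp5 +/+ SN oocytes had 27.1 to 42.4 normalized counts with a median of 37.4. The Nlrp5 -/- SN oocytes had 89.1 in oocyte 7 and 65.8 in oocyte 31, both above every Nlrp5 +/+ value. The log2 difference was 1.08, and 0.85 with oocyte 31 alone. At this comparison 7.25% of genes were higher with no overlap, and 16.2% with oocyte 31 alone. The Nlrp5 +/- SN oocytes, at 33.8 to 78.9, overlapped both other groups. At NSN the genotypes overlapped, with 34.3 to 94.3 in Nlrp5 +/+, 53.3 to 165 in Nlrp5 +/- and 41.0 to 105 in Nlrp5 -/- oocytes. Nlrp5 +/+ oocytes had less Gapdh at SN than at NSN by a log2 of -0.87, with overlap through oocyte 70, whose 34.3 was the lowest NSN value.

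Pkm averaged 1904 ± 457 in Nlrp5 +/+ and 2542 ± 209 in Nlrp5 -/- NSN oocytes (SD, n = 4 each), a log2 difference of 0.42, and 0.37 without oocytes 13 and 14. The groups overlapped through Nlrp5 +/+ oocyte 87, at 2582. In Nlrp5 -/- oocytes the SN values of 4218 and 2906 lay above all 4 NSN values of 2349 to 2828, where 9.48% of genes were higher at SN with no overlap. The log2 difference was 0.49, and 0.24 without oocytes 7, 13 and 14. Pdha1, on the X chromosome and the entry to mitochondrial pyruvate oxidation, differed between Nlrp5 -/- and Nlrp5 +/+ by a log2 of -0.12 at NSN and 0.03 at SN, and by -0.01 and 0.25 without oocytes 7, 13 and 14.

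**Figure D4:**
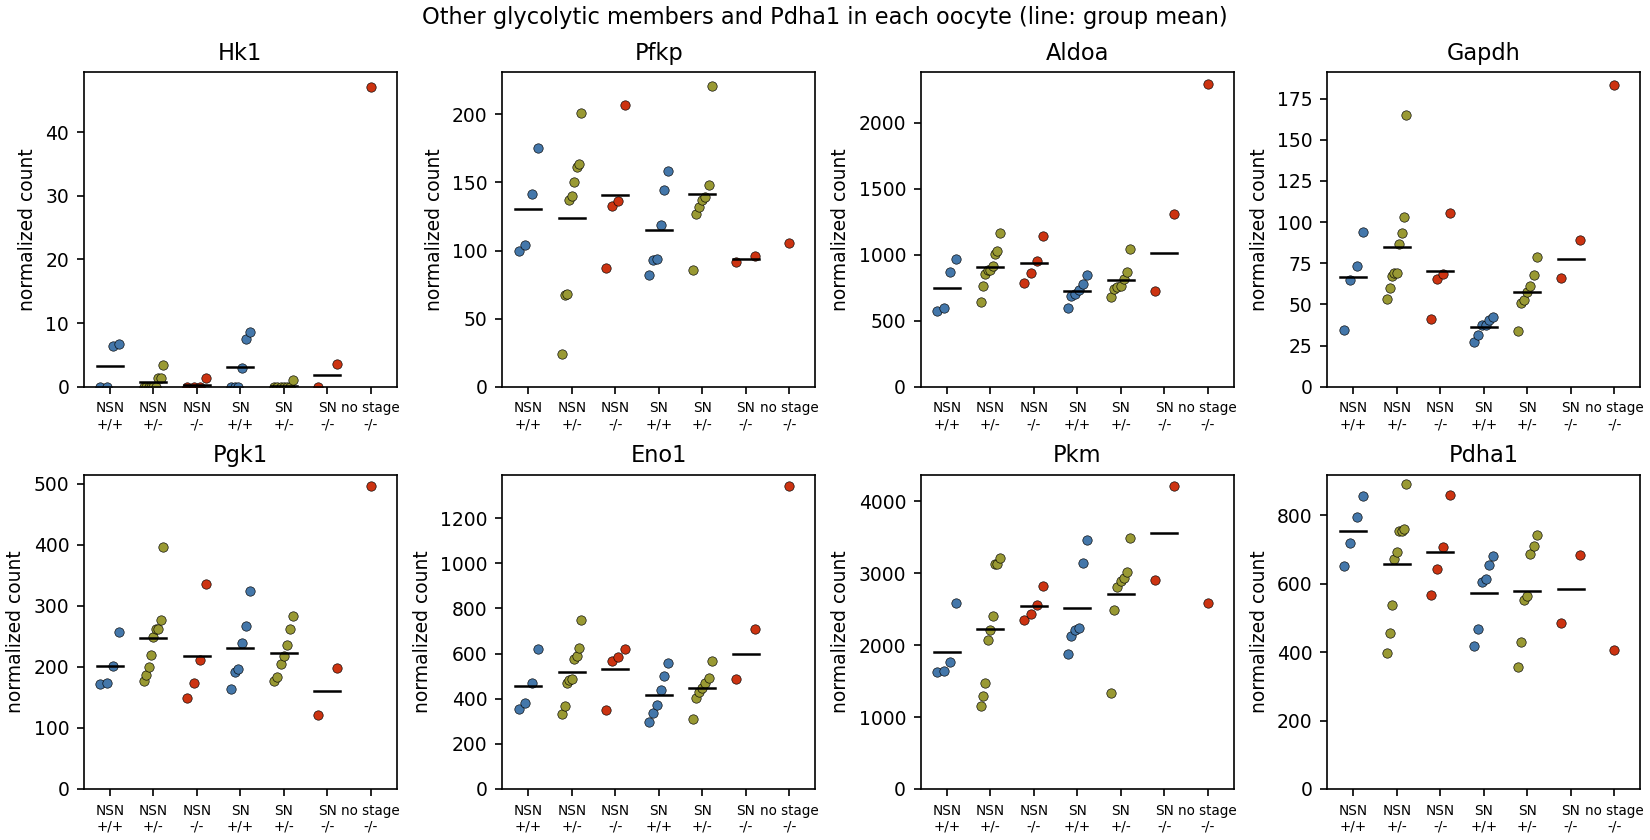
Normalized counts of the 8 other members in each oocyte by stage and genotype on linear axes from 0; points are oocytes and lines are group means. The genotypes overlap for most genes, Gapdh separates Nlrp5 +/+ from -/- at SN, and the unstaged oocyte 15 lies highest for Hk1, Aldoa, Gapdh, Pgk1 and Eno1.

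**Figure D5:**
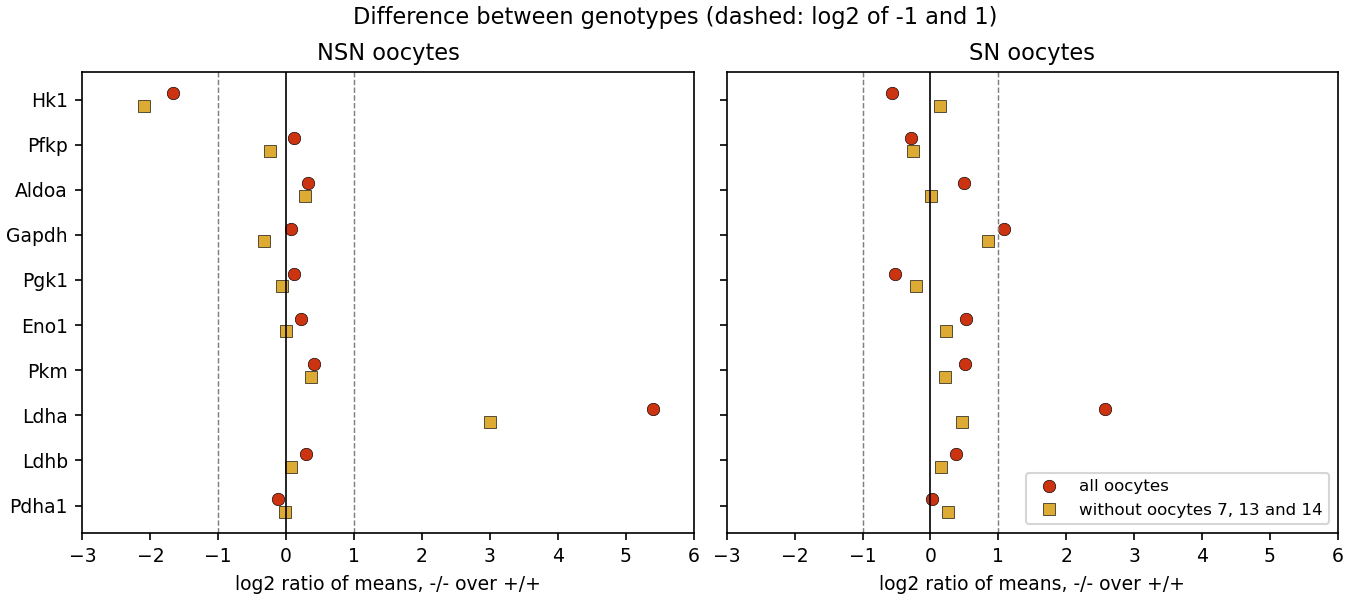
Log2 ratio of group means (1 added) between Nlrp5 -/- and Nlrp5 +/+ oocytes for the 10 members, at NSN (left) and SN (right), with all oocytes (circles) and without oocytes 7, 13 and 14 (squares); dashed lines mark -1 and 1. Ldha lies at 5.41 and 3.00 at NSN and at 2.57 and 0.47 at SN, and Hk1, at the left, rests on few reads.

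Over the wider pathway, 78 genes in 9 lists were counted, from glucose uptake to the pentose phosphate pathway and the mitochondrial shuttles. Between Nlrp5 -/- and Nlrp5 +/+ NSN oocytes, 59 passed the filter, 5 were higher by a log2 of at least 1 (Pfkl, Pfkm, Pgam1, Ldha and Pck2) and 1 was lower (Pdp2), where 4.93% and 3.21% of all genes met the same rules. The 5 include Ldha, whose difference here was known when the members were chosen, and Pck2, listed at 0 in all 4 Nlrp5 +/+ oocytes, which passed the filter only through the Nlrp5 -/- group. The 59 had a median of 0.15. Ldha and Pfkm were past that fold with no overlap, a rule met by 1.31% of all genes, though Ldha, like Pck2, passed the filter only through the Nlrp5 -/- group. Without oocytes 13 and 14, 2 were higher by at least 1 (Ldha and Pfkm; 3.13% of all genes) and 2 were lower (Slc16a7 and Pdp2; 5.83%). At SN, 58 passed the filter, 4 were higher (Gapdh, Ldha, Pdha2 and Pgls) and 0 were lower, against 4.07% and 5.98% of all genes. Gapdh alone among them was also free of overlap, a rule met by 2.19% of all genes. With oocyte 31 alone, 2 were higher, Pfkm and Pfkfb2, against 4.83% of all genes, and neither Ldha nor Gapdh reached a log2 of 1. The 0 lower is for both Nlrp5 -/- SN oocytes. The number lower with oocyte 31 alone is not reported here, where 7.37% of all genes were lower by at least 1.

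Pfkm encodes the muscle isoform of phosphofructokinase, the enzyme that commits glucose to glycolysis. The Nlrp5 +/+ NSN oocytes had 100, 79.2, 88.9 and 152 normalized counts. The Nlrp5 -/- NSN oocytes had 282, 199, 235 and 257 in oocytes 13, 14, 29 and 30, all above the Nlrp5 +/+ group and above the Nlrp5 +/- range of 47.6 to 194, where 0.476% of genes were higher with no overlap. The log2 difference from Nlrp5 +/+ was 1.204, and 1.22 without oocytes 13 and 14, the NSN libraries with the highest sums of the 12 granulosa markers. At SN the Nlrp5 -/- oocytes had 197 and 293 against 93.3 to 249 in Nlrp5 +/+, with overlap, and both lay above the Nlrp5 +/- range of 51.2 to 172, where 5.24% of genes were higher with no overlap.

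The genes whose pattern was most like that of Ldha over the 32 staged oocytes included Ucp2 (Pearson r = 0.80), Obsl1 (0.79), Kazald1 (0.78) and Tspan33 (0.75). Those most like Ldhb were Sin3b (0.87), Aprt (0.85), Cope (0.84), Yipf1 (0.82) and Sec13 (0.81). Between Ldha and Ldhb r was 0.25. All values are over log2 normalized counts of oocytes that share genotype, stage and depth differences, among 13692 genes, and describe likeness only.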

How the data were processed

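Single-oocyte cDNA was made by a protocol that the labels call scM&T-seq and the methods of the study G&T-seq, which builds on Smart-seq2, and was sequenced in paired-end mode. The authors deposited a table of raw read counts per gene, made per the labels with Trim Galore and HISAT2 on GRCm38; versions and whether counting used strand are not given in the sources used here. The methods of the study name another build, but labels and file headers give GRCm38. Tables of the authors' fold changes and p-values were not used. The table had 35373 rows, of which 52 repeated gene entries were left out. No count column lacked a sample, and no 2 libraries agreed within sampling noise (186 pairs of 1 genotype, lowest chi-square per degree of freedom 10.8).

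Counts were divided by size factors (median of ratios over 11850 genes counted in all 33 oocytes) and averaged with equal weight. Log2 differences used means plus a pseudocount of 1. Genes needed a mean of at least 10 in a comparison, and a log2 of 1 was the fold threshold. Lengths came from GENCODE vM39 by gene ID. Scripts were tested on simulated data. Each group is treated as 1 sample, so no tests were made; intervals are 95%, and arise from counting error only. Members and lists were chosen with earlier results of these data known. Genes named were the 10 members, Ldhc, Ldhd, pathway genes past the fold with no overlap between Nlrp5 -/- and +/+, and the 5 genes most like Ldha or Ldhb, of which 1 is not reported here; other pathway genes are named where they make up a count of 5 or fewer, or were chosen after their values were seen. Intervals came from scipy 1.17.1, tables from pandas 2.3.3 and numpy 2.4.6 under Python 3.11.15, and plots from matplotlib 3.10.9. Alternatives covered the normalization, pseudocount, filter, fold, stage and the oocytes left out.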

Additional observations from a re-analysis of the deposited data

Results flagged for a closer look

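In groups of 4 to 9 oocytes, 50 member and group combinations were examined for a lowest or highest value whose gap to the next, as a share of the group's range, exceeded Dixon's critical value, and 7 were found. Chance flags about 1 in 20 groups of normally distributed values, a rate that does not hold for Hk1, whose values are mostly 0. Ldha in Nlrp5 +/- NSN oocyte 61 was 249 normalized counts, the next 22.6. Pkm in Nlrp5 +/+ NSN oocyte 87 was 2582, the next 1766. Gapdh in Nlrp5 +/- NSN oocyte 56 was 165, the next 103, and Pgk1 in Nlrp5 +/- NSN oocyte 53 was 397, the next 278. Hk1 stood apart in Nlrp5 +/- NSN oocyte 48 at 3.38, in Nlrp5 -/- NSN oocyte 14 at 1.39 and in Nlrp5 +/- SN oocyte 46 at 1.02, each on 5 or fewer reads.

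Nlrp5 -/- oocyte 15, which enters no comparison between stages or within one, exceeded all 10 Nlrp5 +/+ oocytes in 6 of the 10 members. It had 1517 normalized counts of Ldha (highest Nlrp5 +/+ oocyte 20.2), 183 of Gapdh (94.3), 2294 of Aldoa (966), 1341 of Eno1 (622), 497 of Pgk1 (324) and 47.1 of Hk1 (8.58). Of the 9 members with a mean of at least 10, which leaves out Hk1, it exceeded every Nlrp5 +/+ oocyte in 5, against 26.6% of the 13901 genes with such a mean, and was the highest of 33 in the same 5, against 17.6%. It also had the highest granulosa, theca and stroma marker sums. Its sum of oocyte markers was the lowest, at 16079 CPM against 19903 to 31196 in the other oocytes. The part of these sums in the values above was not tested.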

How the results depend on the processing

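No paired analysis was possible because the oocytes carry no replicate numbers shared between genotypes and no test was made. Of 2136 log2 values recomputed under alternatives, 2056 moved by less than the SD over oocytes, 72 by more, and 8 took the opposite sign where the value itself was past a log2 of 1. None of 324 values under another normalization moved that far or turned in this way. The cause was not tested. Without oocytes 7, 13 and 14, Ldha differed between Nlrp5 -/- and +/+ by 3.00 at NSN and 0.47 at SN (Ldha minus Ldhb 2.93 and 0.31, median of the members at SN 0.18), and between -/- and +/- by -0.35 and -0.28 (Ldha minus Ldhb 0.15 and -0.46, medians -0.27 and 0.12). Without oocyte 61, or with it counted as SN, the NSN +/- to +/+ difference was 1.59 for Ldha and 0.97 for Ldha minus Ldhb; the +/- SN to NSN difference was 1.16 and 1.60 without it, and 2.25 and 2.69 with it counted as SN. Without regard to stage and with oocyte 15, -/- and +/+ differed by 4.997 in Ldha, 4.75 in Ldha minus Ldhb and 1.00 in Hk1, -/- and +/- by 3.37 and 3.409, and +/- and +/+ by 1.63 in Ldha.

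The number of pathway genes past the fold between NSN -/- and +/+ was 9 higher and 2 lower of 75 with no filter (10.9% and 7.53% of all genes with a read). It was 3 and 0 of 47 at a mean of at least 100 (1.17% and 0.839%), and 7 and 1 of 59 at a log2 of 0.5 (15.6% and 13.3%). At SN it was 8 and 2 of 73 with no filter (8.31% and 11.1%), 1 higher and 0 lower of 45 at a mean of at least 100 (0.77% and 2.86%), and 16 and 4 of 58 at a log2 of 0.5 (15.9% and 18.7%). Leaving out 1 oocyte at a time, the SN -/- to +/+ difference ran from 0.47 to 3.40 for Ldha, 0.31 to 2.82 for Ldha minus Ldhb and 0.18 to 0.66 for the median, with oocyte 7 giving the low ends. The SN -/- to +/- difference ran from -0.28 to 2.65, -0.46 to 2.05 and 0.12 to 0.61, and from -0.20 (without oocyte 31) to 2.01 for Hk1. The NSN +/- to +/+ difference ran from 1.59 (without oocyte 61) to 3.95 for Ldha and 0.97 to 3.34 for Ldha minus Ldhb. Between SN and NSN, +/- oocytes ran from -0.95 to 1.16 for Ldha and -0.51 to 1.60 for Ldha minus Ldhb, and -/- oocytes from -2.93 to 0.42, -2.996 to -0.041 and, for Hk1, -0.43 to 1.78. Ldha and Hk1 rest on few reads in Nlrp5 +/+ oocytes.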

Other observations

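Oocyte 15 was also the highest of 33 in 13 of the 68 pathway genes that are not members, of which 3 are named here after their values were seen. Among the 49 of the 68 with a mean of at least 10 it was highest in 7, or 14.3%, against 17.6% of all genes, so the count is no result about the pathway. Pgam1, phosphoglycerate mutase, had 944 normalized counts in it against a highest other value of 430 in oocyte 14. Pck2, mitochondrial phosphoenolpyruvate carboxykinase, had 311 against 71.4 in oocyte 14, and Pgls of the pentose phosphate pathway 784 against 291 in oocyte 56. Ldhb, at 42056, was at rank 18 of 33 in the same oocyte and Pfkp, at 106, at rank 21. Pdha1, at 407, was at rank 31, below the lowest Nlrp5 +/+ oocyte at 419.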
